A study of Mus musculus with 10 samples.

Results

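The genes described here are 10 enzymes of glutathione and antioxidant metabolism, Gclm, Gclc, Gss, Gstm1, Gpx1, Cat, Prdx2, Txnrd1, Hmox1 and Nqo1, out of 22180 genes measured in the mouse aorta. They were taken by gene symbol, and each had 1 probe set on the array. Each of 10 whole aortas gave total RNA for 1 array (Affymetrix Mouse Gene 2.0 ST). In the first group of 5 aortas the mice lacked both apolipoprotein E and the cytokine interleukin 17 (ApoE-/-/IL-17-/-, a cross of the single knockouts, called the double knockout). In the second group of 5 the mice lacked apolipoprotein E alone (ApoE-/-, called the ApoE knockout). Mice of both groups were male, of C57BL/6 background (written C57B/L6 for the double knockout) and 11 weeks old, and had been fed a high fat diet from the age of 8 weeks, that is for 3 weeks. Apolipoprotein E clears lipoprotein remnants, so both groups are models of early hyperlipidemia, and neither gene was removed in 1 cell type alone. The question was which antioxidant genes differ when IL-17 is lost as well, and whether targets of the transcription factor Nrf2 move together or with the red cell content of the tissue.

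Glutathione is made by glutamate-cysteine ligase, of which Gclc is the catalytic and Gclm the modifier subunit, and then by glutathione synthetase, Gss. Glutathione peroxidases such as Gpx1 use it to reduce peroxides, and transferases such as Gstm1 attach it to electrophiles, while catalase (Cat) and the peroxiredoxin Prdx2 remove hydrogen peroxide without it. Under oxidant or electrophile stress Keap1 releases Nrf2 (gene Nfe2l2), which binds antioxidant response elements of genes such as Gclm, Gclc, Hmox1, Nqo1 and Txnrd1, and Bach1 represses some of the same genes. Red cells are rich in the proteins catalase, peroxiredoxin 2 and glutathione peroxidase 1.

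Double knockout aortas had less Gclm, Prdx2, Cat and Gpx1 RNA than ApoE knockout aortas. Gclm was 2.49-fold lower, Prdx2 1.69-fold, Cat 1.41-fold and Gpx1 1.25-fold. Gstm1 was 1.25-fold higher. Gclc, Gss, Txnrd1, Hmox1 and Nqo1 did not pass the test. The promoter windows of the 4 genes that fell are shown here to see whether these windows share a motif. Each is the 250 bases before the gene's start, 5′ to 3′ on the gene's strand, from RefSeq for build GRCm38.p6. The Gclm window is chr3:122245307-122245556 (plus strand), Prdx2 is chr8:84969372-84969621 (plus strand), Cat is chr2:103485154-103485403 (minus strand) and Gpx1 is chr9:108338830-108339079 (plus strand). Capitals mark a match to the antioxidant response element core TGACNNNGC in Gclm and to the KLF-type motif CCNCNCCCT in Cat, in either orientation.
Gclm: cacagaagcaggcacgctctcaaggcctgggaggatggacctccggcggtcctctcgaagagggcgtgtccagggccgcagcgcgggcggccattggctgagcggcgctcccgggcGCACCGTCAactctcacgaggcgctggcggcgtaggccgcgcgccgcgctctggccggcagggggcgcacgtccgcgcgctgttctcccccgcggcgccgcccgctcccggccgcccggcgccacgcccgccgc
Prdx2: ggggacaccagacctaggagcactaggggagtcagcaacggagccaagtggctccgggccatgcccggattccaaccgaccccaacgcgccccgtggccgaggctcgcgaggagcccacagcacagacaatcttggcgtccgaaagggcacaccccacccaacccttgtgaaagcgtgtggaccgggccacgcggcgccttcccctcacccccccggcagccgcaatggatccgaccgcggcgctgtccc
Cat: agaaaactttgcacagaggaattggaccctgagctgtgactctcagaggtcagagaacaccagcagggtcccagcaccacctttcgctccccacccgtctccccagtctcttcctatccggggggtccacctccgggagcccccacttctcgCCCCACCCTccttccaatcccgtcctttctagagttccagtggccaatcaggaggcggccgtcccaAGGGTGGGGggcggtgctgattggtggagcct
Gpx1: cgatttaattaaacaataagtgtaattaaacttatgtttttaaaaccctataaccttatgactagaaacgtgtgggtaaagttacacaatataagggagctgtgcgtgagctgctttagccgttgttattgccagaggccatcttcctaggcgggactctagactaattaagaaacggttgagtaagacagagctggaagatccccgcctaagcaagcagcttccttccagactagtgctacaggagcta
Both strands were searched for 4 motifs. The core TGACNNNGC matched once in Gclm, in reverse orientation, at positions -134 to -126 relative to the start, and it is found in 10.16% of 32851 promoter windows of the same length. CCNCNCCCT matched at 2 places in Cat, and also in windows of Gstm1, Nqo1 and Txnrd1, and is found in 18.45% of windows. The GATA motifs AGATAA and TGATAA, found in 9.99% and 7.94% of windows, matched in none of the 11 windows of the 8 enzymes that the RefSeq table holds. Txnrd1 also had a TGACNNNGC match, GCTTTGTCA, in 1 of its 3 windows. Gclc and Hmox1 are not among the 8. These matches describe letters in a window and are not measured binding. Sequence outside the windows was not searched, so a window without a match does not show that a gene lacks the site.

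Of the 10 enzymes, 5 were called at an adjusted p under 0.05 (limma, Benjamini-Hochberg over all genes), 1 higher and 4 lower. Across all genes 30.3% were called in either direction, 22.8% higher and 7.53% lower. The groups did not overlap in 4 enzymes, while over all genes they did not overlap in 20.4%. The median difference of the 10 was -0.09 on the log2 scale, against 0.10 over all genes and 0.00 over the 12976 genes whose group means both lay above 5.79. That level is the 95th percentile of the mean values of 1447 odorant, vomeronasal, taste and trace amine receptor genes, which have no known use in the aorta. All 10 enzymes lay above it in both groups. Among the 12976 genes, 1673 were called higher and 1404 lower. Il17a, a targeted gene, averaged 4.66 ± 0.17 in the double knockout and 4.41 ± 0.14 in the ApoE knockout (SD, n = 5 each), both below that level, and where its probes lie relative to the deletion is not stated, so it does not check the labels. None of the 9 smooth muscle, 9 endothelial and 9 fibroblast markers lay below it in both groups, and the smooth muscle level ran from 11.67 to 11.76 in the double knockout and from 11.19 to 11.72 in the ApoE knockout. Where differences are given below, they are double knockout minus ApoE knockout on the log2 scale, and the SE is that of the difference. In whole tissue, fewer cells of a type and less RNA per cell cannot be told apart.

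**Figure D1:**
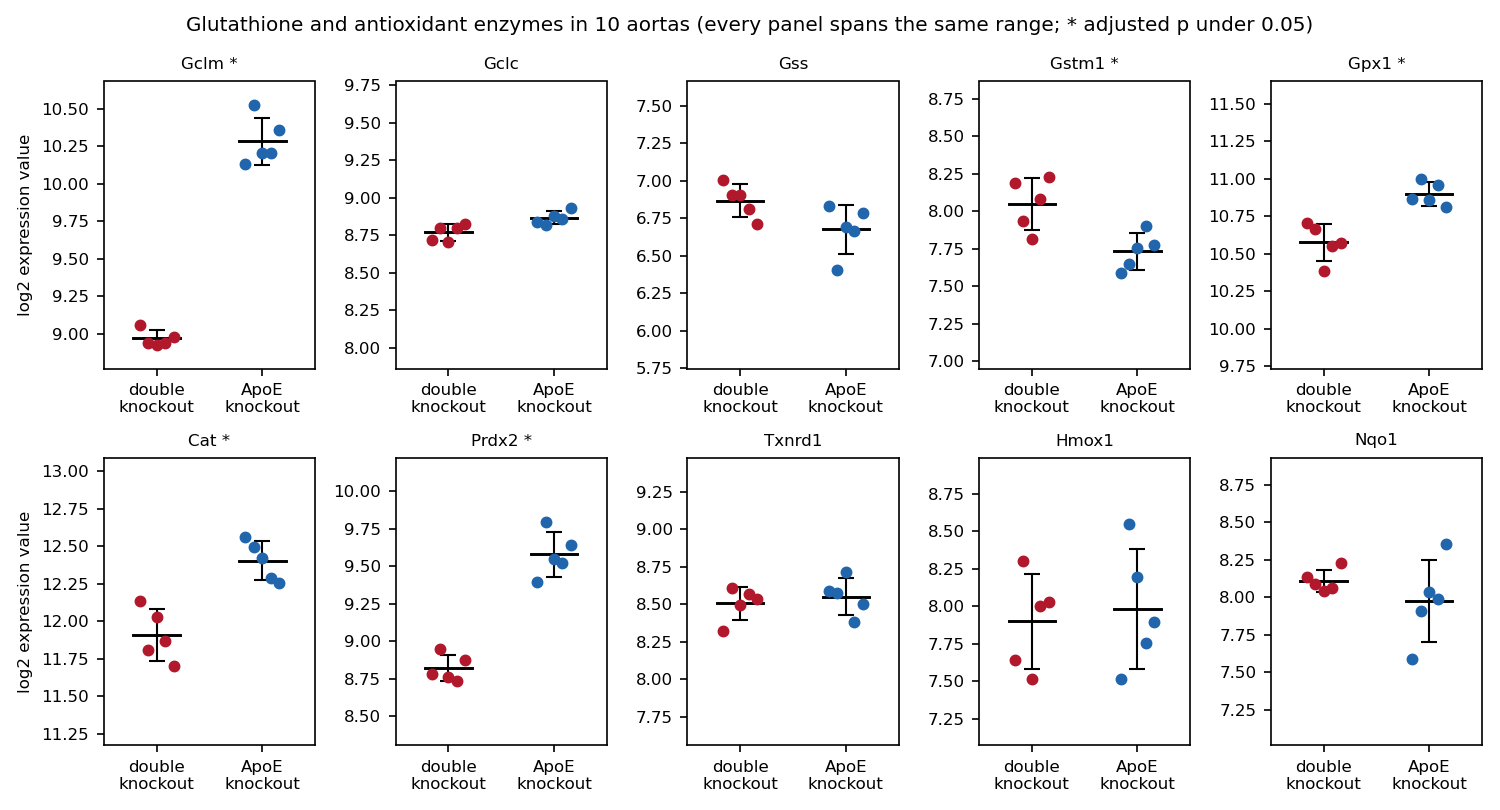
Log2 expression value of each enzyme (y axis, every panel spanning the same range) in the 5 double knockout aortas (red, left) and the 5 ApoE knockout aortas (blue, right). Points are arrays, bars the mean with the SD, and an asterisk marks an adjusted p under 0.05. Gclm, Prdx2, Cat and Gpx1 are separated, and Gstm1 and the other 5 overlap.

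Gclm, the modifier subunit of glutamate-cysteine ligase, had log2 values of 9.06, 8.94, 8.93, 8.94 and 8.98 in the double knockout aortas. In the ApoE knockout aortas it had 10.13, 10.52, 10.20, 10.20 and 10.36. All 5 double knockout values lay within 0.13 of each other and below all 5 ApoE knockout values, which spanned 0.39. The difference was -1.32 (SE 0.08, limma adjusted p = 4.0e-06, 5 arrays per group), which put Gclm at rank 17 of all genes by p. The plot of values by array shows the gap.

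Prdx2, a cytosolic peroxiredoxin, had 8.78, 8.95, 8.76, 8.74 and 8.88 in the double knockout aortas. In the ApoE knockout aortas it had 9.39, 9.80, 9.55, 9.52 and 9.64. The groups did not overlap, and replicate 1 was the lowest and replicate 2 the highest of the ApoE knockout arrays in both Prdx2 and Gclm. The difference was -0.76 (SE 0.08, limma adjusted p = 2.1e-04, 5 arrays per group).

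Cat, the peroxisomal enzyme that splits hydrogen peroxide, had 12.13, 11.81, 12.03, 11.87 and 11.70 in the double knockout aortas and 12.56, 12.49, 12.42, 12.29 and 12.25 in the ApoE knockout aortas. Its groups did not overlap, though the highest double knockout array and the lowest ApoE knockout array lay close together. The difference was -0.50 (SE 0.10, limma adjusted p = 0.0040, 5 arrays per group).

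Gpx1, the selenoenzyme that reduces hydrogen peroxide with glutathione, had 10.71, 10.66, 10.38, 10.55 and 10.57 in the double knockout aortas and 10.86, 11.00, 10.86, 10.95 and 10.81 in the ApoE knockout aortas. The lowest array was replicate 3 of the double knockout, and no array of one group reached the range of the other. The difference was -0.32 (SE 0.08, limma adjusted p = 0.0097, 5 arrays per group).

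Gstm1, a mu class transferase, had 8.19, 7.93, 7.82, 8.08 and 8.23 in the double knockout aortas and 7.58, 7.65, 7.75, 7.90 and 7.78 in the ApoE knockout aortas. The groups overlapped, since replicate 3 of the double knockout lay below replicate 4 of the ApoE knockout. The difference was 0.32 (SE 0.10, limma adjusted p = 0.028), and it fell short of the threshold when any of 6 single arrays was left out (replicates 1, 4 and 5 of the double knockout and 1, 2 and 3 of the ApoE knockout), with adjusted p from 0.052 to 0.062. Centring each array on its median also ended the call (0.11, limma adjusted p = 0.39). The median of all probe sets averaged 5.99 in the double knockout and 5.79 in the ApoE knockout. Centring therefore lowers the difference of every gene by 0.20. The upper quartile differed by 0.04 (7.63 against 7.59), so the offset was smaller among bright probe sets. Mu class genes are similar in sequence, and whether the Gstm1 probe set takes up signal of its relatives was not tested.

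The other 5 enzymes overlapped between the groups. Gclc, the catalytic subunit of the same ligase as Gclm, ran from 8.70 to 8.82 in the double knockout and from 8.82 to 8.93 in the ApoE knockout, with a difference of -0.10 (95% interval -0.23 to 0.03). The lower bound of Gclc, -0.23, lay above -1.14, the upper bound of the interval of Gclm. Gss, which completes glutathione, ran from 6.71 to 7.003 in the double knockout and from 6.41 to 6.83 in the ApoE knockout, with a difference of 0.19 (interval -0.01 to 0.39). Centring on the array median gave Gclc -0.30 (limma adjusted p = 0.0068) and Gss -0.01.

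Txnrd1, the cytosolic thioredoxin reductase, differed by -0.05 (interval -0.22 to 0.13). Hmox1, which breaks down heme, ran from 7.52 to 8.30 in the double knockout and from 7.51 to 8.55 in the ApoE knockout. Hmox1 had the widest spread of the 10 within both groups, and its difference was -0.08 (interval -0.52 to 0.35). Nqo1, a quinone reductase, ran from 8.04 to 8.23 in the double knockout and from 7.59 to 8.36 in the ApoE knockout, with a difference of 0.14 (interval -0.12 to 0.40). Limma adjusted p-values of these 3 were 0.69 for Txnrd1, 0.77 for Hmox1 and 0.40 for Nqo1. Centring moved Txnrd1 to -0.25 (limma adjusted p = 0.049) and Nqo1 to -0.07.

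**Figure D2:**
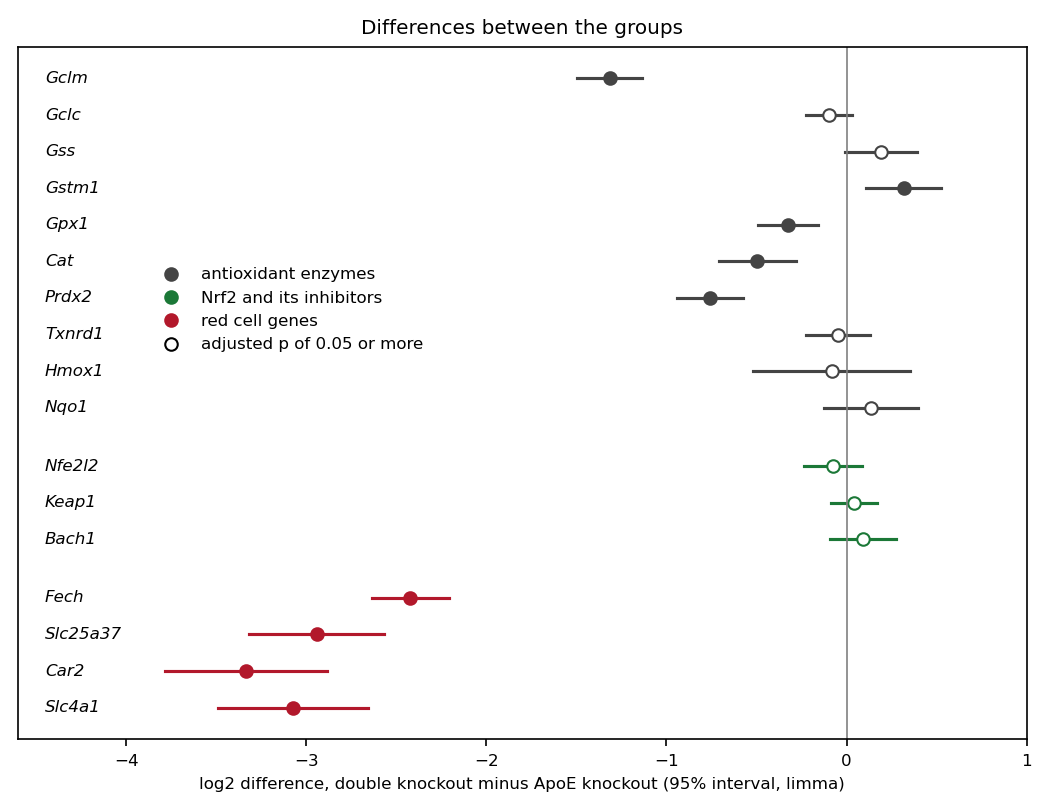
Log2 difference (x axis, double knockout minus ApoE knockout) of the 10 enzymes, of Nfe2l2, Keap1 and Bach1, and of the 4 red cell markers with the smallest p. Points are estimates, lines 95% intervals from limma, and open points were not called. Gclm lies at -1.32 and the 4 red cell genes lie between -3.33 and -2.42.

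Nrf2 and its inhibitors did not pass the test. Nfe2l2 averaged 10.81 ± 0.07 in the double knockout and 10.88 ± 0.11 in the ApoE knockout (SD, n = 5 each), a difference of -0.08 with limma adjusted p = 0.45. Keap1, the adaptor that marks Nrf2 for degradation, differed by 0.04 (limma adjusted p = 0.61), and Bach1, the repressor, by 0.09 (limma adjusted p = 0.42). Centring, which lowers every difference by 0.20, gave Nfe2l2 -0.28 (limma adjusted p = 0.021), Keap1 -0.16 and Bach1 -0.11. Keap1 has 2 probe sets, and their mean differed by 0.22 (limma adjusted p = 0.034). Of 12 measured Nrf2 regulators, 1 was higher and 1 lower. Nfe2l1, a relative of Nrf2, fell by 0.28 (limma adjusted p = 0.013), and Nfe2l3 differed by 0.52, with its ApoE knockout mean below the receptor level. Its call was lost when arrays were quantile normalized (0.30, limma adjusted p = 0.090) and when they were centred (0.31, limma adjusted p = 0.061).

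Of 28 other Nrf2 targets, 1 was higher and 3 were lower, with a median of -0.11. Slc48a1, which carries heme out of the lysosome, fell by 0.58 (limma adjusted p = 4.4e-04) with no overlap. Pgd, of the pentose phosphate pathway, fell by 0.79 (limma adjusted p = 0.014), and Taldo1, of the same pathway, by 0.50 (limma adjusted p = 0.035). Taldo1 missed the threshold after quantile normalization, with an adjusted p of 0.055, and without any of 7 single arrays, all but replicates 1 and 2 of the double knockout and 5 of the ApoE knockout. The aldose reductase relative Akr1b8 differed by 0.50 with both means below the receptor level, and its call was lost under both other scalings and without any of 7 single arrays, all but replicates 3 and 5 of the double knockout and 5 of the ApoE knockout. The other 24 did not pass. Among them were Srxn1, which restores oxidized peroxiredoxins, at -0.20 (limma adjusted p = 0.060) and Gsr, glutathione reductase, at -0.17 (limma adjusted p = 0.12). Others lay on the higher side, such as Aox1 at 0.33 (limma adjusted p = 0.064) and Abcc1 at 0.22 (limma adjusted p = 0.074).

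**Figure D3:**
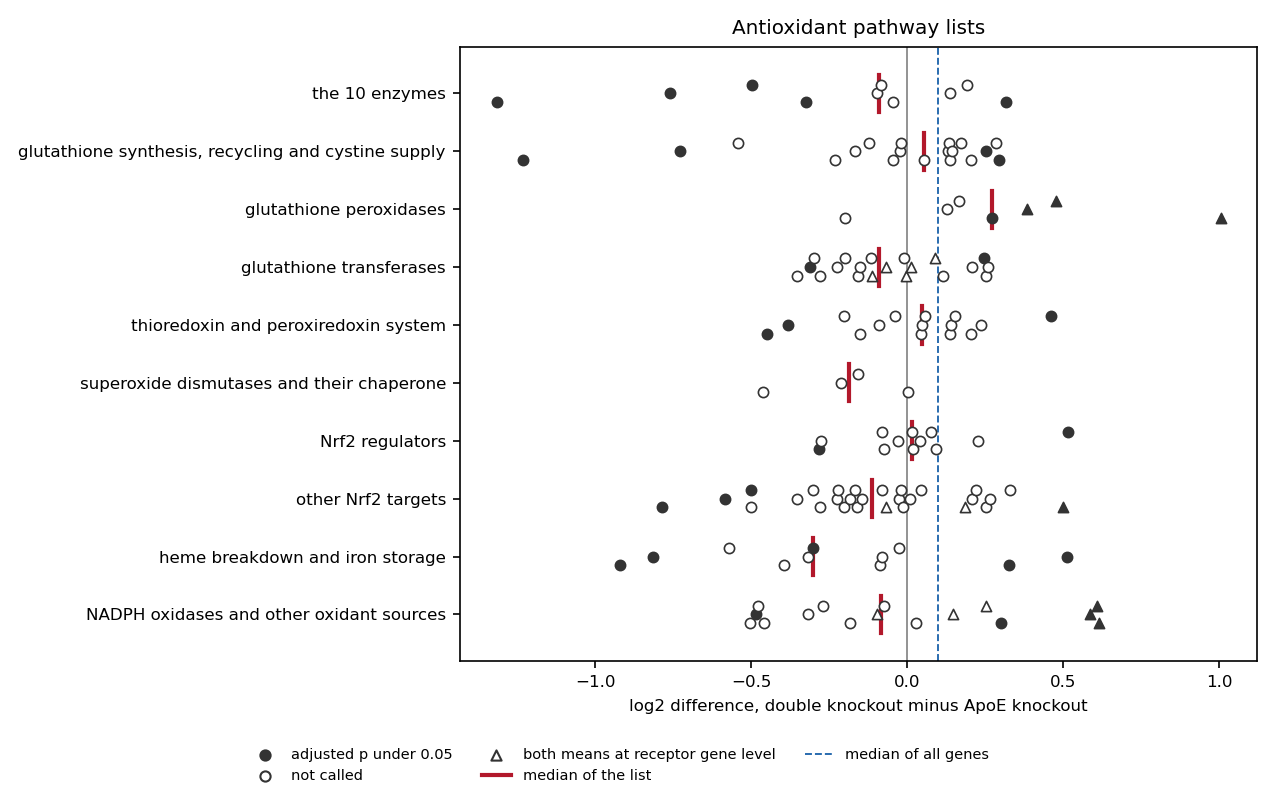
Log2 differences (x axis, double knockout minus ApoE knockout) of every measured gene in 9 antioxidant lists and of the 10 enzymes. Filled points were called, triangles lie below the receptor level in both groups, red bars are list medians and the dashed line is the median of all genes at 0.10. Most genes lie near 0, and those called point to either side.

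The 9 antioxidant lists, with each gene counted once, held 140 genes besides the 10, of which 121 were measured. Of these, 16 were higher and 13 lower, with a median difference of -0.03. Over all genes 22.8% were called higher and 7.53% lower. Among the 12976 genes with both means above the receptor level, 1673 were called higher and 1404 lower. Of the 16 higher in the lists, 7 lay below the receptor level in both groups, as did 2774 of the 5050 higher over all genes. The plot of the lists shows called genes on either side of 0 in most of them.

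Among 19 genes of glutathione synthesis, recycling and cystine supply, 2 were higher and 2 lower. Glrx5, a mitochondrial glutaredoxin of iron-sulfur cluster assembly, fell by 1.23 (SE 0.08, limma adjusted p = 5.8e-06) in the probe set kept. It has 2 probe sets, and their mean differed by -1.07 (SE 0.10, limma adjusted p = 9.7e-05). Chac2, which degrades glutathione, fell by 0.73 (limma adjusted p = 5.6e-04). Glrx2, a second mitochondrial glutaredoxin, was higher by 0.29 (limma adjusted p = 0.0098), and Cbs, which starts the route to cysteine, by 0.25 (limma adjusted p = 0.017). The call of Glrx2 was lost after centring (0.09) and that of Cbs after centring (0.05) and after quantile normalization (0.12).

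Of 7 other glutathione peroxidases, 4 were higher and none was lower. Of these, 3 (Gpx2, Gpx5 and Gpx6) lay below the receptor level in both groups, and 1 of the 4 (Gpx2) was still called after centring. Over all genes, 8016 lay below that level in both groups, and 2774 of these were called higher. Gpx8, of the endoplasmic reticulum, averaged 12.23 ± 0.07 in the double knockout and 11.96 ± 0.11 in the ApoE knockout (SD, n = 5 each), higher by 0.27 (limma adjusted p = 0.015), but by 0.07 after centring, with the call lost. Of 20 other transferases, Gstm2 was higher by 0.25 (limma adjusted p = 0.045) and Gsto1 lower by 0.31 (limma adjusted p = 0.047). Gstm2 lost its call after centring and Gsto1 after quantile normalization, and each also lost it without any of 7 single arrays. The arrays that could be left out with the call kept were replicates 2 and 3 of the double knockout and 3 of the ApoE knockout for Gstm2, and 1 and 2 of the double knockout and 5 of the ApoE knockout for Gsto1.

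Among 15 genes of the thioredoxin and peroxiredoxin system, 1 was higher and 2 were lower. Txnip, the inhibitor of thioredoxin, fell by 0.38 (limma adjusted p = 0.0014) and Msrb1, a methionine sulfoxide reductase, rose by 0.46 (limma adjusted p = 0.0015), both without overlap. Prdx3, the mitochondrial peroxiredoxin, fell by 0.45 (limma adjusted p = 0.042), and lost the call after quantile normalization and without any of 5 single arrays (replicates 4 and 5 of the double knockout and 1, 3 and 4 of the ApoE knockout). None of the 3 superoxide dismutase genes was called, nor was their copper chaperone Ccs. Sod2 differed by -0.46 (limma adjusted p = 0.077) and Sod1 by -0.16 (limma adjusted p = 0.13), and both were called as lower after centring. Without replicate 5 of the ApoE knockout Sod2 was called (-0.59, limma adjusted p = 0.025).

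In heme breakdown and iron storage, 2 of 11 genes were higher and 3 lower. Tfrc, the transferrin receptor, fell by 0.92 (limma adjusted p = 0.0017), and Cd163, the macrophage receptor for hemoglobin bound to haptoglobin, fell by 0.81 (limma adjusted p = 3.8e-04). Blvra, biliverdin reductase, was higher by 0.33 (limma adjusted p = 0.013), and lost the call after centring. Hpx, hemopexin, differed by 0.51 with its ApoE knockout mean below the receptor level, and lost the call after quantile normalization. Among 16 NADPH oxidase subunits and other oxidant sources, 4 were higher and 1 lower. Nox1, Nox3 and Mpo lay below the receptor level in both groups. Nox4, an oxidase expressed in vascular smooth muscle, was higher by 0.30 (limma adjusted p = 0.016) and by 0.10 after centring, with the call lost. The smooth muscle level, which was not centred, was higher by 0.26, and its part in the Nox4 value was not tested.

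Compared with the ApoE knockout, the double knockout had less RNA of most red cell markers. Of 21 measured red cell markers 15 were called lower, 1 higher (Trim58) and 5 were not called, and 2 lay below the receptor level in both groups. The median difference of the 21 was -1.20. The 4 with the smallest p, which the plot of differences shows, are Slc4a1 (band 3), Car2 (a carbonic anhydrase), Slc25a37 (a mitochondrial iron importer) and Fech (the last enzyme of heme synthesis), with differences of -3.07, -3.33, -2.94 and -2.42. The red cell level, the mean log2 value of the 21 markers, ran from 6.35 to 6.64 in the double knockout and from 7.64 to 8.12 in the ApoE knockout aortas (exact permutation p = 0.0079, two-sided, the smallest that the assignments of 5 and 5 arrays can give, and 0.021 adjusted over 16 measures). Levels of platelet, neutrophil and B cell markers also did not overlap between the groups and were lower in the double knockout, with differences of -1.17, -1.10 and -1.09. The T cell level differed by -1.35 with overlapping groups (exact permutation p = 0.048, adjusted 0.063). Levels of cardiac muscle (0.59, adjusted permutation p = 0.036), smooth muscle (0.26) and fibroblast markers (0.18, both adjusted permutation p = 0.042) were higher in the double knockout. The part of these cells in the enzymes' differences was not tested. None of these levels was centred. The median of all probe sets was itself higher by 0.20 in the double knockout, and the upper quartile by 0.04.

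**Figure D4:**
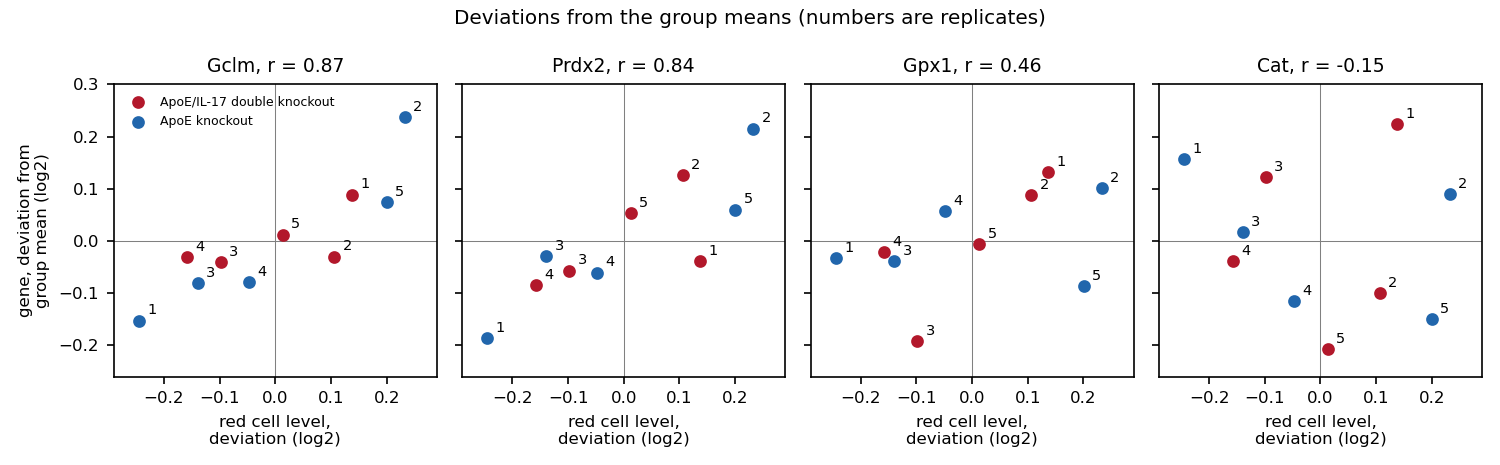
Deviation of Gclm, Prdx2, Gpx1 and Cat from the group mean (y axis, log2) against the deviation of the red cell level (x axis, log2) in each array, red for the double knockout and blue for the ApoE knockout, numbered by replicate. Gclm (r = 0.87) and Prdx2 (r = 0.84) run along a diagonal, and Cat (r = -0.15) does not.

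Because the groups lay apart in both measures, each array was compared with its own group mean. Over the 10 arrays the deviations of Gclm followed those of the red cell level, with Pearson's r = 0.87 (exact permutation within groups, two-sided, p = 0.0022, adjusted 0.022 over the 10 enzymes) and Spearman's rho = 0.89 (permutation p = 0.0016, adjusted 0.016). In the ApoE knockout the 5 arrays had the same order in Gclm and in the red cell level, replicates 1, 3, 4, 5 and 2 from low to high. In the double knockout the orders differed, 3, 4, 2, 5 and 1 in Gclm and 4, 3, 5, 2 and 1 in the red cell level. Without the 2 arrays farthest from the median red cell deviation, replicates 1 and 2 of the ApoE knockout, r was 0.82.

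For Prdx2, r was 0.84 (permutation p = 0.0083, adjusted 0.042) and rho 0.83 (permutation p = 0.014, adjusted 0.070), and r was 0.67 without the same 2 arrays. Both calls depended on single arrays. Gclm missed the threshold without any one ApoE knockout array or without replicate 3 of the double knockout (adjusted p from 0.050 to 0.21), and Prdx2 without any of 8 arrays, all but replicates 1 and 5 of the double knockout. The r stayed between 0.81 and 0.92 for Gclm and between 0.76 and 0.93 for Prdx2. After quantile normalization r was 0.73 for Gclm, with an adjusted permutation p of 0.21.

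The other 8 enzymes did not pass against the red cell level. Gpx1 had r = 0.46 (adjusted permutation p = 0.44), Nqo1 0.58 and Hmox1 0.48 (both adjusted 0.44), and Cat -0.15 (adjusted 0.73). With the mean of the 4 red cell genes named above in place of the 21, Gclm had r = 0.60 (adjusted permutation p = 0.033), Gpx1 0.80 (adjusted 0.039) and Prdx2 0.67 (adjusted 0.063). A fit with the red cell level as a term gave Gclm -0.51 (SE 0.29) and Cat -0.68 (SE 0.46), and Prdx2 and Gpx1 both 0.06 (SE 0.30 and 0.34). In that fit limma called none of the 10 enzymes and none of the 22180 genes (1 enzyme and 1691 genes at an unadjusted p under 0.05). The 1 enzyme was Nqo1, at 1.07 (SE 0.48, limma adjusted p = 0.65). Since the groups do not overlap in the red cell level, genotype and red cell content cannot be told apart between the groups.

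Levels of fat and macrophage markers were set against the enzymes in the same way. White adipocyte markers averaged 9.44 ± 0.42 in the double knockout and 9.77 ± 0.53 in the ApoE knockout (SD, n = 5 each, exact permutation p = 0.32). No enzyme passed against them (3 of 10 at an unadjusted permutation p under 0.05). Cat had r = 0.74 and Nqo1 -0.77 (both adjusted permutation p = 0.10), and Gclc -0.72. Against the brown adipocyte level Nqo1 had r = -0.80, Gclc -0.75 and Cat 0.72 (adjusted permutation p = 0.11 for each), and no enzyme passed (3 unadjusted). With the white adipocyte level as a term, Cat, Gclm, Prdx2 and Gpx1 were still called and Gstm1 was not (0.27, limma adjusted p = 0.058). Macrophage markers averaged 9.24 ± 0.32 in the double knockout and 9.49 ± 0.16 in the ApoE knockout (SD, n = 5 each, exact permutation p = 0.15). Hmox1, which macrophages use to handle heme, had r = 0.75 (adjusted permutation p = 0.071) and Txnrd1 0.69 (adjusted 0.17), and no enzyme passed (2 unadjusted).

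The enzymes were also compared with each other. Of 45 pairs, 24 had an r above 0 and the median r was 0.04. None passed after adjustment over the 45 (smallest adjusted permutation p = 0.22), and 6 had an unadjusted p under 0.05. Among the 6 enzymes Gclm, Gclc, Hmox1, Nqo1, Txnrd1 and Gstm1, all known Nrf2 targets, 11 of 15 pairs had an r above 0, with a median of 0.32, and 1 had an unadjusted p under 0.05. Gclm and Gclc, the subunits of 1 enzyme, had r = -0.11 (permutation p = 0.77, adjusted 0.93). The highest r was that of Hmox1 with Prdx2, 0.82, and the lowest that of Gclc with Cat, -0.86 (both adjusted permutation p = 0.22).

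Of the 121 other antioxidant genes, those whose deviations from the group means were most like each called enzyme over the 10 arrays, by Pearson's r, were as follows. Gclm was most like Slc48a1 (r = 0.84), and next Msrb1 (r = 0.58), a gene that differed in the opposite direction between the groups. Of these, Msrb1 had the higher Spearman rho (0.84) and Slc48a1 the lower (0.77). Prdx2 was most like Cyba, a subunit of phagocyte NADPH oxidase (r = 0.86), and next Slc48a1 (r = 0.77). Gpx1 was most like Ncf4 and Rac2, of the same oxidase (both r = 0.84). Cat was most like Bach2 (r = 0.92) and Gpx6 (r = 0.86), and Gstm1 most like Chac1 (r = 0.85) and Txnip (r = 0.83). Gpx6 lay below the receptor level in both groups. For each enzyme these are the 2 largest r of 121 over 10 arrays, picked by their size, and none was tested.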

How the data were processed

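The values the authors deposited are log2 expression, 1 number for each probe set of each array (the base was inferred from the range). Per the submitters' processing notes the tool was limma, without a version or a stated role. How background was corrected and arrays were normalized and summarized is not given in these sources. Of 41345 probe sets, 23521 had 1 symbol in the platform annotation, 1814 several and 16010 are unnamed here. For the 1082 genes with several, the probe set with the highest mean was kept, which left 22180 genes. Of the 23521 probe sets with 1 symbol, 23328 were found in the RefSeq gene table and 0 symbols were updated.

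Genes were fitted with lmFit and eBayes of limma 3.58.1 (R 4.3.3), group as the only term, two-sided, Benjamini-Hochberg over all genes at 0.05, with no filter. The number of arrays limits the precision. Array measures were compared by exact permutation over all assignments of 5 and 5 arrays, and correlations by all 14400 assignments within groups (Python 3.11.15, numpy 2.4.6). Correlations comprised 5 families of 10 enzymes and 1 of 45 pairs. The code was tested on simulated data. Figures were drawn with matplotlib 3.10.9. No arrays were identical, and across genes arrays correlated at 0.986 to 0.993 within groups and 0.970 to 0.986 between them.

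Named genes are the 10 enzymes, Nfe2l2, Keap1, Bach1, up to 4 called genes of smallest p per list (the 2 smallest where fewer than 2 were called), the 2 genes most like each called enzyme, and 4 red cell genes. Srxn1, Gsr, Aox1, Abcc1 and Trim58 were named after their values were seen. Members and lists were chosen with earlier results of these data known. The pairs of enzymes, the 4-gene red cell level and the receptor level were added after seeing the data. For ApoE knockout samples the protocol speaks of wild-type and ApoE/caspase-1 mice and does not mention IL-17. Batches and scan dates are not stated, and batch cannot be told apart from genotype. The labels call the replicates biological. Alternatives were quantile normalization, centring, a filter on dim genes, the probe set rule, the variance model, array weights, a replicate block, marker levels as terms, and leaving out each array.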

Additional observations from a re-analysis of the deposited data

Results flagged for a closer look

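The level of 8 cardiac muscle markers had 1 array far from the others in each group. It was 7.73 in replicate 2 of the double knockout, where the next highest array was 7.09, and 6.88 in replicate 4 of the ApoE knockout, where the next highest was 6.50. The gap to the nearest array was a larger part of the range than Dixon's 95% critical value in both. About 1 in 20 groups exceeds it by chance, and 52 groups were checked, the 10 enzymes and 16 array measures in both genotypes. None of the 10 enzymes was set apart in this way in either group.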

How the results depend on the processing

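Of the 10 enzymes, 5 were called in the analysis as reported and 4 to 6 in the other fits, apart from those with a red cell term. Leaving out each array gave 4 to 5 enzymes, always with Gclm, Prdx2, Cat and Gpx1 among them, and 5056 to 7022 genes, against 6721. Quantile normalization called 4461 genes (44.4% of them higher), centring each array on its median 7310 (22.8% higher), against 75.1% higher as reported, and the median difference over all genes was -0.02 and -0.11 in these fits, against 0.10. Without the dimmest 40% of genes 3419 were called, and with the macrophage level as a term 3728, with 11 calls of named genes lost, that of Gstm1 among them. With the red cell level as a term, and with the level of 4 red cell genes, limma called 0 enzymes and 0 genes. The 4 genes were chosen after seeing the data, by the smallest p between these same groups. Neither level overlapped between the groups, so these fits cannot separate genotype from red cell content. The SE of Gclm was 0.08 as reported, 0.29 with the red cell level and 0.45 with the 4-gene level. At an unadjusted p under 0.05 these 2 fits held 1 and 0 enzymes and 1691 and 1371 genes. The sign turned under centring for Gss (-0.013), Nqo1 (-0.068), Keap1 (-0.16) and Bach1 (-0.11). It turned with the red cell level for Gss (-0.12), Gpx1 (0.058), Prdx2 (0.059), Hmox1 (1.29), Nfe2l2 (0.36), Nfe2l1 (0.089), Nfe2l3 (-0.36), Slc48a1 (0.029), Nox1 (-0.22) and Nox3 (-0.057), and with the 4-gene level for Gss (-0.18), Gpx1 (0.55), Prdx2 (0.10) and Hmox1 (1.62). With the macrophage level it turned for Hmox1 (0.19) and Txnrd1 (0.035). Leaving out arrays gave Hmox1 -0.20 to 0.06 and Txnrd1 -0.088 to 4.5e-04. The cause was not tested. The number of enzymes correlated with the red cell level was 2, 1 after quantile normalization and 0 to 2 when an array was left out. Across genes, the deviations of same-numbered arrays of the groups had correlations of 0.26, 0.20, -0.13, 0.06 and 0.14. Differently numbered arrays were not compared, so whether the numbers pair the samples was not tested. With the replicate number as a block 5 enzymes and 6594 genes were called, Gstm2 (limma adjusted p = 0.076) and Akr1b8 (limma adjusted p = 0.060) were not, and Sod2 was (limma adjusted p = 0.024).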

Other observations

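The enzymes did not order the arrays in 1 way. In the ApoE knockout, replicate 2 was highest in 4 of the 10 enzymes (Gclm, Gpx1, Hmox1 and Prdx2) and in the red cell level, and lowest in Gclc and Gss. Replicate 1 was lowest in 5 (Gclm, Gstm1, Hmox1, Nqo1 and Prdx2) and in the red cell level, highest in Gss and Cat, and had the highest white adipocyte level of the 10 arrays, 10.50. In the double knockout, replicate 3 was lowest in 6 enzymes and had the highest white adipocyte level of its group, 9.94, and replicate 1 was highest in Gclm, Gss, Cat, Gpx1 and the red cell level. These orders were read after seeing the data and were not tested.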
